A study of Homo sapiens with 9 samples.

Results

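Human keratinocytes are held together by desmosomes, adherens junctions, tight junctions and gap junctions, and 36 genes of these structures were followed across the parental HaCaT line and its actin-expressing derivatives. The genes were listed by name for their place in these structures. Of the 36, 34 had a probe set listed under their symbol alone, and CTNND1 and F11R were not analysed here. The 34 measured genes, of 19775 on the array, were 12 of the desmosome, 3 of the adherens junction, 15 of the tight junction and 4 of the gap junction. They had 76 of the 54613 probe sets, and each gene is given by its brightest.

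The data comprised 9 whole-genome arrays, 3 per line, made to find which genes respond to actin in the nucleus. HaCaT cells are keratinocytes that became immortal spontaneously in culture, and they were grown in DMEM with fetal bovine serum. WT-actin cells stably expressed β-actin fused to EGFP, and NLS-actin cells expressed the same fusion with a nuclear localization sequence. Both derivatives were made by plasmid transfection and G418 selection to a stable GFP-positive population, whereas the parental cells carried no construct and underwent no selection. There was 1 stable line per construct, so what the construct did and what else distinguishes the lines cannot be told apart. It is not stated whether the 3 arrays of a line came from separate cultures, so p values measure the spread between these samples, which may be technical.

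Desmosomes anchor keratin filaments at the cell border through desmosomal cadherins (desmogleins and desmocollins), armadillo proteins and desmoplakin, and they give the epidermis its mechanical strength. Adherens junctions couple classical cadherins to actin filaments through catenins. Tight junctions seal the space between cells with claudins, occludin and zonula occludens proteins, and gap junctions are channels of connexins that pass small molecules between neighbouring cells. In epidermis many desmosomal cadherins and connexins are expressed in particular layers, so that their levels change as keratinocytes differentiate.

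Promoters of 4 members are shown. GJA1 differed between the actin lines at the adjusted threshold, GJB6 and DSC2 had an unadjusted p under 0.05 against parental cells in both actin lines, and GJB2 is the chromosomal neighbour of GJB6. Each runs 5′ to 3′ from 250 bases before to 50 bases after the start of the gene in RefSeq on GRCh38.p14. GJA1 lies at chr6:121435396-121435695 on the plus strand, GJB6 at chr13:20230929-20231228, GJB2 at chr13:20192889-20193188 and DSC2 at chr18:31102372-31102671, these last on the minus strand. Capitals mark CAGGTG, the E-box bound by the SNAI and ZEB families of repressors, which began 5 bases before the start in GJB2 and 156 bases before it in DSC2.
GJA1: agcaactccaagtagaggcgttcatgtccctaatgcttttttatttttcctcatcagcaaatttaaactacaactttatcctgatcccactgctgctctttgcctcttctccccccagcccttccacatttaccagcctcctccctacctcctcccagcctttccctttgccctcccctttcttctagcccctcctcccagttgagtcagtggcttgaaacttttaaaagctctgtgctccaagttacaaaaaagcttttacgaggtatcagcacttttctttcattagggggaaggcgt
GJB6: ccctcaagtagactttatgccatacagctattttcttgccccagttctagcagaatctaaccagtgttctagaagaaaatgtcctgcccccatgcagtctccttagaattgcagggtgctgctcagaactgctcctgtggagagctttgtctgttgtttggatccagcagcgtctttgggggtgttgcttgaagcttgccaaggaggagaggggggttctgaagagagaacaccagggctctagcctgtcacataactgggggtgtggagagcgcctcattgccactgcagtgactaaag
GJB2: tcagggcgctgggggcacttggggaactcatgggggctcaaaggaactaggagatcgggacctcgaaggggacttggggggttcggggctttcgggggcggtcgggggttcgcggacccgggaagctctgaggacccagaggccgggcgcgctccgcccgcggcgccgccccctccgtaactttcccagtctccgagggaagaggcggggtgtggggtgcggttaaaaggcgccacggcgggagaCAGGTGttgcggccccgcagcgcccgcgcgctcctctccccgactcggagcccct
DSC2: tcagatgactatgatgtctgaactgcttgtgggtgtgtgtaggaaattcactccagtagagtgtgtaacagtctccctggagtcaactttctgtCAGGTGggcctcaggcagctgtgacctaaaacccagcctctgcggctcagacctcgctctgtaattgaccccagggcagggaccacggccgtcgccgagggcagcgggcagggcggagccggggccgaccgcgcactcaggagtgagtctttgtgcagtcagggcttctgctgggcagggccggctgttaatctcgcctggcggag

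Promoter windows were found for 23 of the members, 35 windows in all, and none for DSG4. The E-box (CACCTG on either strand, which includes CAGGTG) was present in 10 of the 35 windows (28.6%), from 9 genes, against 20.6% of all 35116 windows. The CArG box bound by SRF was in 0 of the 35 windows and in 1.29% of all windows, and AACCGGTT, bound by grainyhead-like factors, was in 0 of the 35 and in 0.134% of all, both strands searched. These are matches of letters within the windows only.

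The labelled cell type was checked against markers. The basal keratin KRT5 had signals of 8335 ± 1748, 9805 ± 2583 and 11151 ± 776.5 (SD, n = 3 each) in parental, WT-actin and NLS-actin cells, in the linear intensity units of the deposited MAS5 values. The 6 keratinocyte markers summed to between 31325 and 54379 on every array, against 22.95 to 76.0 for 4 melanocyte, 30.2 to 181 for 4 immune and 27.2 to 228 for 4 endothelial markers. The 6 fibroblast markers summed to between 308 and 1174. The 6 markers of a mesenchymal state summed to between 4645 and 17995, mostly from N-cadherin (CDH2, mean signals of 6410, 8297 and 6024 in parental, WT-actin and NLS-actin cells) and fibronectin (FN1, 6068, 8424 and 4062), while vimentin (VIM) had a mean signal of 21.9 or less in each line.

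In each line 1 array stood apart in a shared direction, namely replicate 2 of the parental and of the NLS-actin line and replicate 1 of the WT-actin line, and this touched several junction genes. TJP3, a zonula occludens scaffold, had signals of 521, 1611 and 184 in parental cells, 2793, 562 and 167 in WT-actin cells and 588, 3935 and 708 in NLS-actin cells. In each line the deviating array was the highest, by 2.38, 3.19 and 2.61 on the log2 scale over the mean of the other pair. DSG3, PKP1 and CXADR were also highest, and PKP2, PKP3, GJA1 and GJB2 lowest, on the deviating array of every line. These 4 highest and 4 lowest members are 11.8% each of the 34, against 15.5% and 9.20% of all genes. KRT1, a keratin of suprabasal cells, had a signal of 3305 in NLS-actin replicate 2 against 371 and 265 in the other NLS-actin arrays. Of the 6 suprabasal markers, 5 were highest on that array within the line. The other, FLG, was lowest on the deviating array of every line, at 822 in parental, 1279 in WT-actin and 1665 in NLS-actin cells. On the other arrays of these lines FLG was at 1970 to 2203, 2360 to 2517 and 3509 to 3756. The summed signal of the 6 markers ranged from 5672 to 7763 in parental, 5883 to 9072 in WT-actin and 7183 to 11546 in NLS-actin cells. DSG1 and DSC1, the desmosomal cadherins that define suprabasal cells, stayed at mean signals of 12.9 or less in every line. The log2 ratio of 3′ to 5′ signal of the ACTB control probe sets was 2.99, 3.90 and 3.68 on the deviating arrays, the highest of each line. That of GAPDH was 1.62 on WT-actin replicate 1 and 0.47 to 0.96 on every other array. Whether these ratios relate to the deviation was not tested. The part of the arrays' deviation in the differences between lines was not tested either. Values without the 3 arrays are given where a call at an adjusted or unadjusted p under 0.05 changes.

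**Figure D1:**
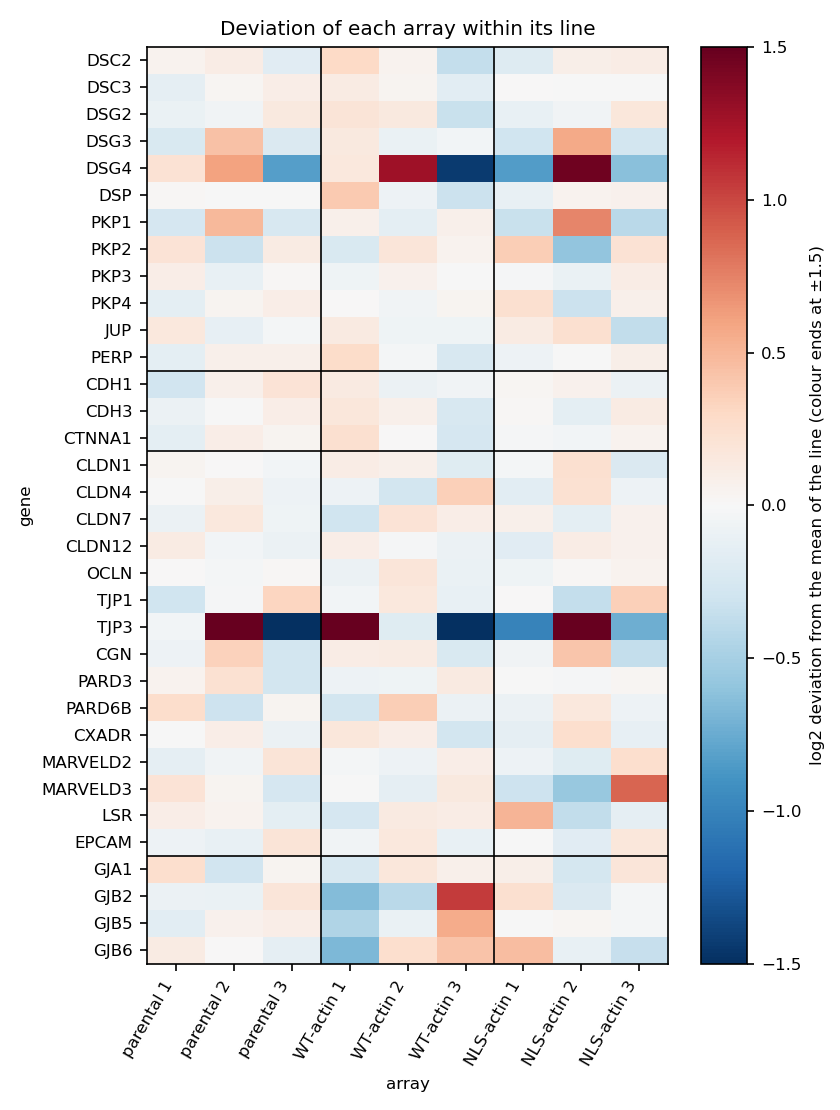
Log2 deviation of each array (columns) from the mean of its own line for the 34 junction genes (rows), red for above and blue for below, with the colour scale ending at 1.5 either way. TJP3 is darkest red on parental 2, WT-actin 1 and NLS-actin 2, and DSG4 also varies widely within each line, whereas rows such as OCLN are nearly white.

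Between NLS-actin and WT-actin cells, 2 junction genes passed the limma threshold (adjusted p under 0.05), and both were higher in NLS-actin cells. They were the desmosomal cadherin DSG4 and the gap junction gene GJA1, which encodes connexin 43. They made up 5.88% of the members, against 0.728% of all genes called in this comparison and 0.389% called as higher. Between either actin line and the parental line 0 of the 34 members passed in limma, where 0.131% of all genes did for NLS-actin and 0.167% for WT-actin cells. At an unadjusted p under 0.05 in limma, 8 members (23.5%) differed between NLS-actin and parental cells against 6.44% of all genes, 5 (14.7%) between WT-actin and parental cells against 6.69%, and 5 (14.7%) between NLS-actin and WT-actin cells against 9.47%. Of the 34 members, 32 lay above the median signal level of all genes. Among the 9888 genes above it, 7.10%, 7.77% and 10.6% had such a p in these comparisons. Of the 32 members there, 6 (18.8%), 3 (9.38%) and 4 (12.5%) did. Both comparisons with parental cells share the same 3 parental arrays. The study names Tukey's test in its general statistics, but for the arrays it gives only p and fold thresholds. Tukey's test gave 0 members at an adjusted p under 0.05 in each comparison, where it called 0.0202%, 0.0405% and 0.086% of all genes. At an unadjusted p under 0.05 it gave 3 members for NLS-actin against parental (3.7% of all genes), 1 for WT-actin against parental (3.74%) and 4 between the actin lines (5.27%).

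**Figure D2:**
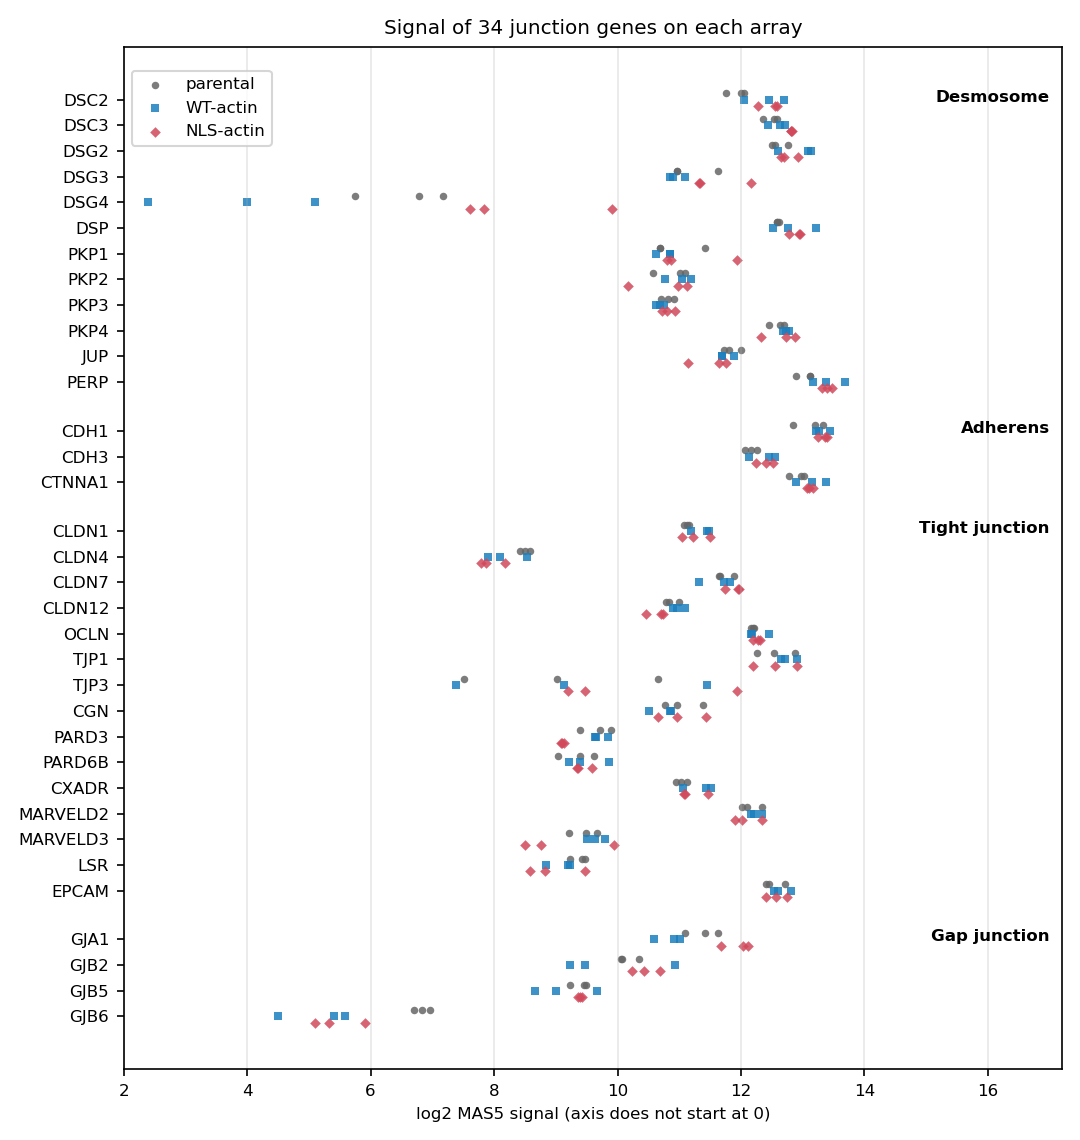
Log2 MAS5 signal (horizontal axis, not starting at 0) of the 34 junction genes, grouped by structure, with 1 symbol per array: grey circles for parental, blue squares for WT-actin and red diamonds for NLS-actin cells. The symbols of most genes overlap between lines, while DSG4 and GJA1 order as WT-actin, parental, NLS-actin and GJB6 is highest in all 3 parental arrays.

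Most of the 34 genes differed little between lines. The median log2 fold change over the members was 0.10 for NLS-actin against parental cells, 0.10 for WT-actin against parental cells and -0.01 between the actin lines (NLS-actin minus WT-actin), beside -0.01, -0.06 and 0.03 over all genes. The 95% confidence interval lay within a 2-fold change in either direction for 28, 30 and 25 of the 34 members. After quantile normalization the members' medians were 0.0215, -0.0425 and 0.0413, beside 0.0226, 0.00287 and 0.0144 over all genes. The sign of the members' median in the comparisons with WT-actin cells thus depends on the scaling.

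**Figure D3:**
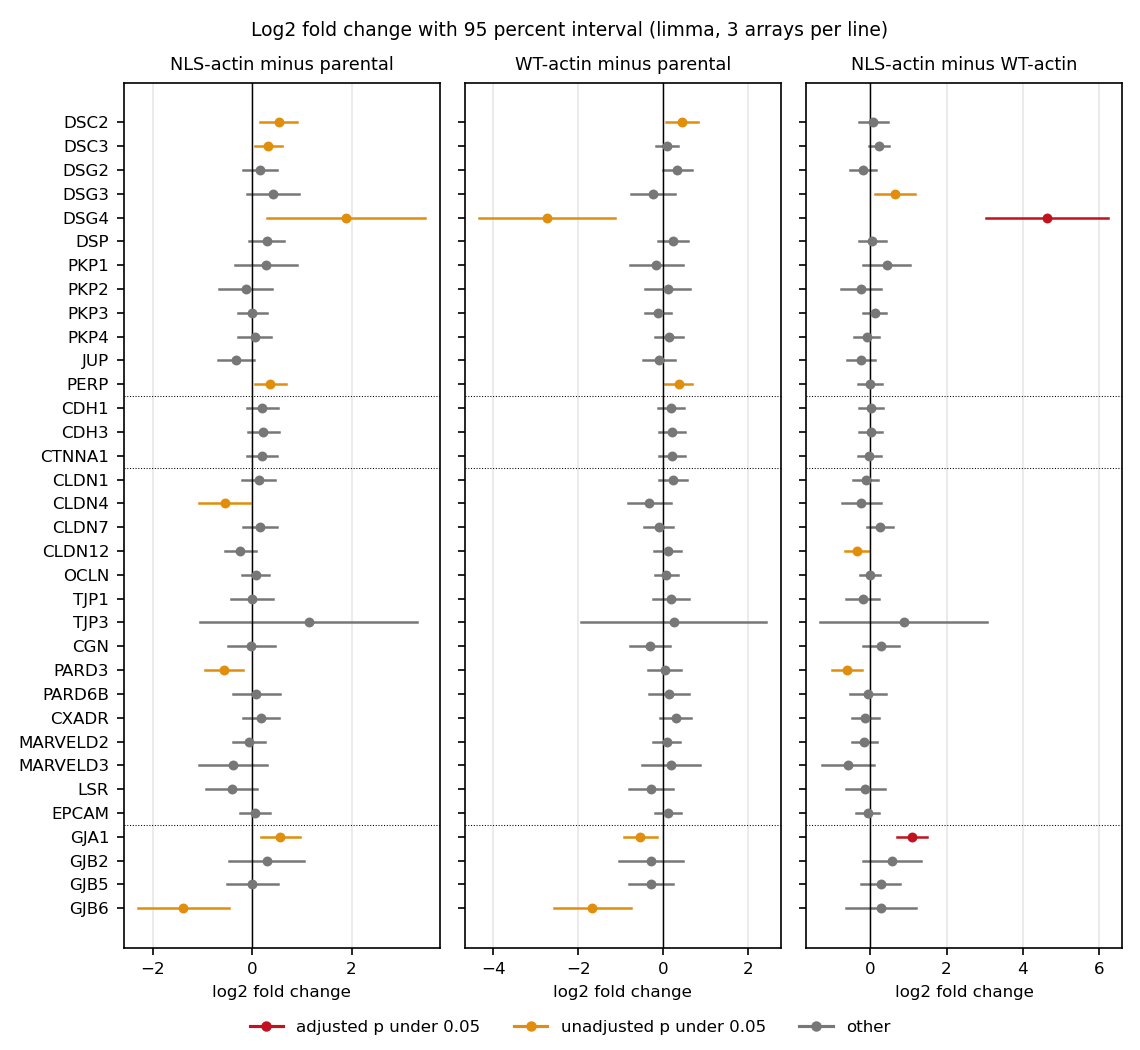
Log2 fold change (horizontal axes, which differ in range) of each junction gene in the 3 comparisons, with lines for the 95% confidence interval from limma on 3 arrays per line. Red marks an adjusted p under 0.05, orange an unadjusted p under 0.05 and grey the rest, and only DSG4 and GJA1 in the right panel are red.

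Among the desmosomal cadherins, DSG4 had the widest differences. DSG4 encodes desmoglein 4, which is best known from the hair follicle and the upper epidermis. Its signals were 110, 144 and 53.4 in parental cells, 15.9, 34.4 and 5.24 in WT-actin cells and 196, 965 and 227 in NLS-actin cells. All 3 NLS-actin arrays were above and all 3 WT-actin arrays below every parental array. NLS-actin exceeded WT-actin cells by 4.62 on the log2 scale (standard error 0.73, 95% interval 3.03 to 6.22, adjusted p = 0.0121 from limma), and by 3.97 (adjusted p = 0.0428, limma) without the 3 deviating arrays. The adjusted p in limma was 0.0517 when only these lines were fitted and 0.111 when the variance did not follow the intensity. The WT-actin signals lie near the floor of the measurement, where the 25th percentile of all signals was 8.08. With that value added before the log2 step the difference was 3.92, so the size of the fold is uncertain.

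Against parental cells DSG4 was 1.89 higher in NLS-actin cells (standard error 0.73, adjusted p = 0.66, limma) and lower in WT-actin cells (log2 fold change -2.74, standard error 0.73, adjusted p = 0.329, limma). Neither passed the threshold. NLS-actin replicate 2, the array with the KRT1 signal of 3305, carried the highest DSG4 signal, and without the 3 deviating arrays the difference from parental cells was 1.46 (unadjusted p = 0.0785, limma). Without that array alone DSG4 was 1.16 higher than in parental cells and 3.89 higher than in WT-actin cells (log2). The array holds 1 probe set listed for DSG4, so that no other probe set could be compared.

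DSG3, the desmoglein of basal and spinous keratinocytes, had signals of 1995, 3159 and 2003 in parental, 2188, 1848 and 1919 in WT-actin and 2542, 4602 and 2583 in NLS-actin cells. The NLS-actin arrays were all above the WT-actin arrays, with a log2 fold change of 0.65 (standard error 0.24, unadjusted p = 0.0193, adjusted p = 0.373, limma). Against parental cells DSG3 was at 0.42 (unadjusted p = 0.109), and at 0.36 (unadjusted p = 0.0386, limma) without the 3 deviating arrays. A second probe set of DSG3 gave 0.97 between the actin lines (adjusted p = 0.0617 over all probe sets, limma). Against parental cells that probe set was at 0.45 in NLS-actin cells (unadjusted p = 0.0382, adjusted p = 0.764, limma). In WT-actin cells it was at -0.52 (unadjusted p = 0.0208, adjusted p = 0.78, limma). DSG2, the desmoglein shared by most epithelia, did not differ in any comparison at an unadjusted p under 0.05, and its largest log2 fold change was 0.34 for WT-actin against parental cells (95% interval -0.01 to 0.68).

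Of the desmocollins, partners of the desmogleins in the desmosome, DSC2 and DSC3 were higher on every NLS-actin array than on every parental array by their brightest probe sets. DSC2 had signals of 4075, 4243 and 3472 in parental, 6622, 5579 and 4217 in WT-actin and 4945, 6013 and 6132 in NLS-actin cells. Its log2 fold change was 0.53 for NLS-actin (standard error 0.17, unadjusted p = 0.00932, adjusted p = 0.485, limma) and 0.46 for WT-actin against parental cells (unadjusted p = 0.021, adjusted p = 0.64, limma). The other 3 probe sets of DSC2 gave -0.49 to 0.51 for NLS-actin against parental cells, and the mean of all probe sets gave 0.20 (unadjusted p = 0.534, limma) there and 0.21 (unadjusted p = 0.512, limma) for WT-actin. Without the 3 deviating arrays the WT-actin value was 0.37 (unadjusted p = 0.0818, limma). DSC3 had signals of 5272, 5912 and 6165 in parental, 6712, 6335 and 5543 in WT-actin and 7252, 7218 and 7197 in NLS-actin cells. The 3 NLS-actin values lay close together and above all 6 others, and the log2 fold change against parental cells was 0.32 (standard error 0.12, unadjusted p = 0.0219, adjusted p = 0.652, limma). The other probe sets of DSC3 gave log2 fold changes of 0.41 and 0.50 in the same comparison. Without the 3 deviating arrays the unadjusted p of DSC3 was 0.0589 in limma.

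In RefSeq the desmosomal cadherin genes neighbour one another on chromosome 18, where DSC3, DSC2 and DSC1 are adjacent, and DSG1, DSG4, DSG3 and DSG2 are adjacent. By their brightest probe sets, DSC2, DSC3, DSG2, DSG3 and DSG4 all lay above 0 for NLS-actin against parental cells, from 0.16 (DSG2) to 1.89 (DSG4). For WT-actin against parental cells DSC2, DSC3 and DSG2 lay above 0 (0.46, 0.10 and 0.34), and DSG3 and DSG4 below 0 (-0.23 and -2.74). None of these differences passed the adjusted threshold. DSC1 and DSG1 were near the floor.

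PERP, a membrane protein of desmosomes that is also a p53 target, had the highest mean signal of the desmosomal probe sets, which does not rank their transcripts. Its signals were 7566, 8844 and 8846 in parental, 13163, 10605 and 9187 in WT-actin and 10202, 10717 and 11415 in NLS-actin cells, so that by this probe set both actin lines lay above the parental arrays. The log2 fold changes were 0.36 for NLS-actin (unadjusted p = 0.0279, adjusted p = 0.68) and 0.37 for WT-actin against parental cells (unadjusted p = 0.0236, adjusted p = 0.659, limma). After quantile normalization these were 0.14 (unadjusted p = 0.117) and 0.0797 (unadjusted p = 0.363, limma), and without the 3 deviating arrays the WT-actin value was 0.27 (unadjusted p = 0.135, limma). The 5 probe sets of PERP differed, from -0.37 to 1.18 for NLS-actin against parental cells. The WT-actin value was -0.28 over the mean of all probe sets and -0.19 without probe sets marked as prone to cross-hybridization, so its direction depends on the probe set.

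Desmoplakin (DSP), the plakin that ties desmosomes to keratin filaments, had signals of 6154 to 6271 in parental, 5838 to 9545 in WT-actin and 7009 to 7905 in NLS-actin cells. All NLS-actin arrays exceeded the parental arrays, with a log2 fold change of 0.29 (95% interval -0.07 to 0.64, adjusted p = 0.821, limma). Plakoglobin (JUP), the armadillo protein of both desmosomes and adherens junctions, had a value of -0.33 (log2) in NLS-actin against parental cells (95% interval -0.70 to 0.04), and -0.51 (unadjusted p = 0.0208, adjusted p = 0.516, limma) without the 3 deviating arrays. The plakophilins PKP1, PKP2, PKP3 and PKP4 are armadillo proteins that cluster desmosomal components. By their brightest probe sets they had log2 fold changes between -0.24 and 0.43 over the comparisons, with overlapping arrays throughout. The second PKP1 probe set, at 381 to 394 in NLS-actin and 182 to 292 in WT-actin cells, gave 0.82 there (unadjusted p = 0.00492, adjusted p = 0.277, limma). A PKP4 probe set at a mean signal of 66.8 gave -1.03 between the actin lines (unadjusted p = 0.0245, adjusted p = 0.529, limma). Over the 12 desmosomal genes the median was 0.28 for NLS-actin against parental cells, with 10 of 12 above 0, and 0.10 for WT-actin against parental cells. Of all 19775 genes, 9773 lay above 0 for NLS-actin against parental cells. After quantile normalization the desmosomal medians were 0.13, with 9 of 12 above 0, and -0.06. Over the mean of all probe sets they were 0.20, with 7 of 12 above 0, and -0.19, with 3 of 12 above 0.

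**Figure D4:**
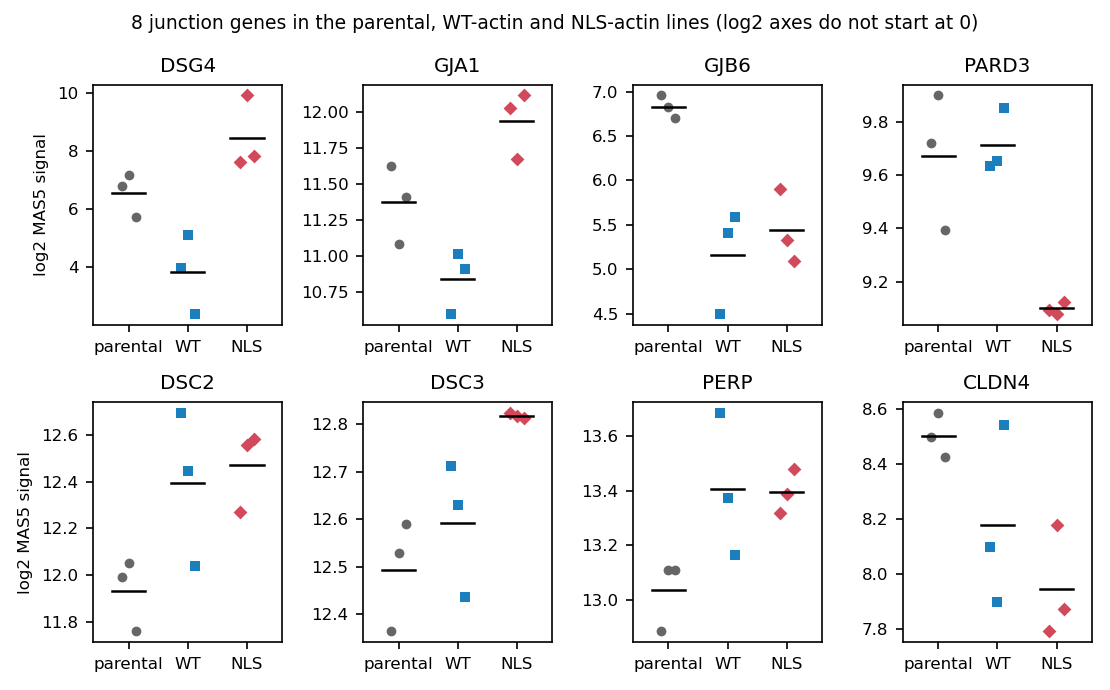
Log2 MAS5 signal (vertical axes, which differ and do not start at 0) on each array of 8 junction genes in the parental, WT-actin and NLS-actin lines, with a horizontal bar at the mean of each line. DSG4 and GJA1 are lowest in WT-actin and highest in NLS-actin cells, PARD3 is lowest in NLS-actin cells, and GJB6 is highest in parental cells.

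The adherens junction genes did not pass the test in any comparison. E-cadherin (CDH1), the classical cadherin of epithelia, had signals of 7343, 9400 and 10333 in parental, 11180, 9550 and 9812 in WT-actin and 10494, 10729 and 9680 in NLS-actin cells. The lines overlapped, and the log2 fold change was 0.20 (95% interval -0.10 to 0.51) for NLS-actin and 0.18 (95% interval -0.12 to 0.49) for WT-actin against parental cells. P-cadherin (CDH3), the classical cadherin of basal keratinocytes and the neighbour of CDH1 on chromosome 16, had log2 fold changes of 0.22 in both. α-catenin (CTNNA1), which links cadherin complexes to actin, had 0.19 and 0.22, and its NLS-actin arrays (8614 to 9181) lay above all parental arrays (7048 to 8315). This probe set of CTNNA1 and another, at 0.24 and 0.12, are marked as prone to cross-hybridization. Its remaining probe sets gave -0.34 to -0.06 for NLS-actin and -0.37 to -0.12 for WT-actin, so its direction depends on the probe set. After quantile normalization CDH1 was at -0.00500 and -0.0856 and CTNNA1 at -0.00455 and -0.0412 for NLS-actin and WT-actin against parental cells, so that their direction depends on the scaling, whereas CDH3 was at 0.13 and 0.0861. The median of the 3 genes for NLS-actin against parental cells was 0.20, and -0.00455 after quantile normalization. For these 3 genes the log2 values of NLS-actin and WT-actin cells differed by -0.03 to 0.02, with 95% intervals inside 0.40 either way.

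Tight junction genes were mixed in direction, with 7 of 15 above 0 and 8 below 0 for NLS-actin against parental cells and a median log2 fold change of -0.00346. PARD3, a polarity scaffold that helps to build tight junctions, had signals of 844, 955 and 672 in parental, 795, 806 and 925 in WT-actin and 547, 540 and 559 in NLS-actin cells. By this probe set the 3 NLS-actin arrays lay close together and below all 6 others. The log2 fold change was -0.57 against parental cells (standard error 0.18, unadjusted p = 0.00764, adjusted p = 0.454, limma) and -0.61 against WT-actin cells (standard error 0.18, unadjusted p = 0.00488, adjusted p = 0.202, limma). All 4 probe sets of PARD3 were lower in NLS-actin than in parental cells, by log2 fold changes between -0.80 and -0.29. Against WT-actin cells the second brightest gave -0.68 (unadjusted p = 0.0051, limma), but the dimmer ones gave only -0.11 and -0.18. Those dimmer probe sets were at -0.17 and -0.61 for WT-actin against parental cells, so they do not set NLS-actin apart from WT-actin cells.

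Of the claudins, the membrane proteins that set the tightness of the seal, CLDN4 and CLDN12 were lower in every NLS-actin array than in every parental array. CLDN4 had signals of 361, 384 and 344 in parental, 274, 239 and 372 in WT-actin and 221, 290 and 234 in NLS-actin cells. Its log2 fold change in NLS-actin against parental cells was -0.56 (unadjusted p = 0.0351, adjusted p = 0.713, limma), -0.44 (unadjusted p = 0.0666, limma) after quantile normalization, and 0.43 over the mean of its probe sets, of which the second had a mean signal of 5.37. CLDN12 had signals of 2051, 1831 and 1774 in parental, 2172, 2007 and 1912 in WT-actin and 1411, 1709 and 1659 in NLS-actin cells. Against WT-actin cells it was -0.35 (unadjusted p = 0.03, adjusted p = 0.448, limma), with an unadjusted p of 0.0588 in limma without the 3 deviating arrays. CLDN1, a claudin of the epidermal barrier, was higher in each WT-actin array (2329 to 2850) than in each parental array (2170 to 2294), with a log2 fold change of 0.25 (95% interval -0.09 to 0.58). Its other probe set went the opposite way, with signals of 813 to 1102 in WT-actin and 1153 to 1359 in parental cells and a log2 fold change of -0.39, and gave -0.53 for NLS-actin against parental cells (unadjusted p = 0.0422, limma). The direction of CLDN1 thus depends on the probe set. CLDN7 had log2 fold changes between -0.10 and 0.26.

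Occludin (OCLN), a membrane protein of the tight junction strand, had log2 fold changes of 0.07 against parental cells in both actin lines. By this brightest probe set it was among the steadiest members. Another of its 4 probe sets, at a mean signal of 208, gave -0.68 for NLS-actin (unadjusted p = 0.0106, adjusted p = 0.583, limma) and -0.41 for WT-actin against parental cells. Its remaining probe sets gave -0.17 to 0.08. The adhesion protein EPCAM had signals of 5609, 5444 and 6719 in parental, 6194, 7150 and 5915 in WT-actin and 6093, 5432 and 6896 in NLS-actin cells. ZO-1 (TJP1), the main scaffold of the junction, had signals of 4906, 5957 and 7512 in parental, 6728, 7716 and 6384 in WT-actin and 6020, 4689 and 7722 in NLS-actin cells. Both overlapped between all lines. CGN, PARD6B, CXADR, MARVELD2, MARVELD3 and LSR had log2 fold changes between -0.58 and 0.30 with an unadjusted p above 0.05 in each comparison. TJP3 had a log2 fold change of 1.14 for NLS-actin against parental cells, with a 95% interval of -1.05 to 3.32 that spans both directions.

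Among the gap junction genes GJA1 passed the test between NLS-actin and WT-actin cells. It had signals of 3155, 2174 and 2719 in parental, 1550, 2066 and 1929 in WT-actin and 4166, 3269 and 4432 in NLS-actin cells. All NLS-actin arrays lay above and all WT-actin arrays below the parental arrays. NLS-actin exceeded WT-actin cells by 1.10 on the log2 scale, a 2.14-fold difference (standard error 0.18, 95% interval 0.70 to 1.49, adjusted p = 0.0162 from limma), and by 1.11 (adjusted p = 0.01, limma) without the 3 deviating arrays. Leaving out WT-actin replicate 1, NLS-actin replicate 1 or NLS-actin replicate 3 gave 0.97 to 1.05 with adjusted p of 0.0539, 0.0963 and 0.0895 in limma. Against parental cells GJA1 was 0.56 higher in NLS-actin cells (unadjusted p = 0.00927, adjusted p = 0.485, limma) and the WT-actin value was -0.53 on that scale (unadjusted p = 0.013, adjusted p = 0.578, limma).

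GJB6, which encodes connexin 30, was lower in both actin lines than in the parental line, although neither difference passed the adjusted threshold. Its signals were 124, 114 and 104 in parental, 22.5, 42.4 and 48.0 in WT-actin and 59.96, 40.1 and 34.1 in NLS-actin cells. Every parental array lay above all 6 others. The log2 fold changes were -1.39 for NLS-actin (standard error 0.42, unadjusted p = 0.00624, adjusted p = 0.413, limma) and -1.67 for WT-actin against parental cells (standard error 0.42, unadjusted p = 0.00184, adjusted p = 0.275, limma). NLS-actin and WT-actin cells differed by 0.28 (95% interval -0.63 to 1.19). The signals in the actin lines are near the array medians of 29.7 to 43.3, so that the size of the fold is uncertain.

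GJB2, which encodes connexin 26 and lies next to GJB6 on chromosome 13, had signals of 1076, 1067 and 1299 in parental, 599, 707 and 1949 in WT-actin and 1656, 1202 and 1375 in NLS-actin cells. WT-actin replicate 3 stood above the other arrays, and the log2 fold change of NLS-actin against WT-actin cells was 0.58 (95% interval -0.18 to 1.34). Without that array GJB2 joined DSG4 and GJA1 at an adjusted p under 0.05 in limma. GJB5 had signals of 602 to 720 in parental, 406 to 816 in WT-actin and 657 to 687 in NLS-actin cells, with log2 fold changes between -0.28 and 0.28. The 4 connexin genes had a median log2 fold change of -0.41 for WT-actin against parental cells and 0.43 between the actin lines (NLS-actin minus WT-actin), with 0 of 4 and 4 of 4 above 0, and the same counts after quantile normalization. Without the 3 deviating arrays these medians were -0.29 and 0.20, and between the actin lines GJB5 was at 0.0334 and GJB6 at 0.00300.

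At the thresholds of the study, a p under 0.05 and a fold above 2, DSG4 and GJB6 passed in each comparison with parental cells, and DSG4 and GJA1 passed between NLS-actin and WT-actin cells. These are 5.88% of the members each time, against 3.17%, 3.03% and 4.85% of all genes for NLS-actin against parental, WT-actin against parental and NLS-actin against WT-actin cells. When any probe set of a gene could pass, PERP was added for NLS-actin against parental cells (6.41% of all genes) and PKP4 between the actin lines (8.23%), and none was added for WT-actin against parental cells (5.53%). Arrays of the lines did not overlap for 11 members (32.4%) between NLS-actin and parental cells, against 13.9% of all genes. The counts were 5 (14.7%) between WT-actin and parental cells, against 12.3%, and 6 (17.6%) between NLS-actin and WT-actin cells, against 13.9%. Among the 32 members above the median signal level these counts were 9, 3 and 5, against 16.3%, 12.6% and 14.7% of genes there.

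The replicate numbers of the parental and NLS-actin arrays were taken as pairs, from correlations in these same data that set apart only replicate 2. With the number as a block within those lines in the fit of all 9 arrays, 0 members were called for NLS-actin against parental cells, where 0.137% of all genes were. In a fit of those 6 arrays alone, chosen after the data were seen, DSC2 (adjusted p = 0.0446), DSG4 (adjusted p = 0.00675), GJA1 (adjusted p = 0.0242) and TJP3 (adjusted p = 0.0269, limma) were called, all higher in NLS-actin cells. TJP3 then also passed the thresholds of the study. That fit called 1.91% of all genes, against 0.131% without the block. With the block over all 9 arrays DSG4 was called for WT-actin against parental cells (adjusted p = 0.0456, limma), as were 0.177% of all genes.

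Of the 22 members with more than 1 probe set, 9 had all probe sets on the same side of 0 for NLS-actin against parental cells. Among the 17 with several probe sets at a mean signal of 100 or more, these agreed in sign for 10.

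**Figure D5:**
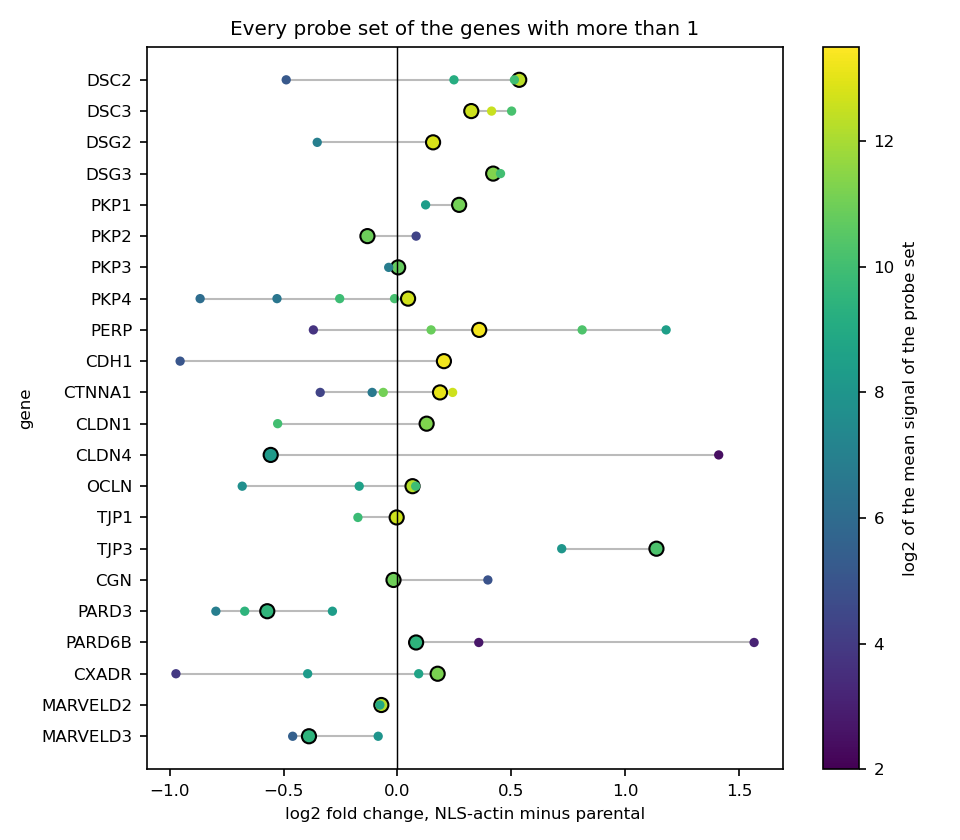
Log2 fold change of NLS-actin against parental cells (horizontal axis) for every probe set of the 22 junction genes with more than 1, coloured by the log2 of the mean signal, with the brightest probe set of each gene outlined in black. The probe sets of DSC3, DSG3 and PARD3 lie on the same side of 0, whereas those of PERP range from -0.37 to 1.18 and those of CLDN4 lie on opposite sides.

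Of 55 further junction genes that were measured, 0 passed an adjusted p under 0.05 in limma in any comparison. At an unadjusted p under 0.05 there were 4 higher and 0 lower for NLS-actin against parental cells. The counts were 1 and 3 for WT-actin against parental cells, and 6 and 3 between the actin lines. Of all genes, 6.44%, 6.69% and 9.47% had such a p in these comparisons, in either direction. The smallest p was that of PARD6G, a partner of PARD3, between NLS-actin and WT-actin cells, where its signals were 764, 795 and 735 in WT-actin and 1089, 1777 and 1270 in NLS-actin cells. All NLS-actin arrays were higher, with a log2 fold change of 0.82 (unadjusted p = 0.00119, adjusted p = 0.106, limma). The adhesion molecule NECTIN3 was at -1.97 (log2) in WT-actin against parental cells (adjusted p = 0.224), at signals of 19.3 to 57.0 against 93.9 to 200.2. The junctional adhesion molecule JAM3 was 0.68 higher in NLS-actin than in WT-actin cells (adjusted p = 0.234), and the envelope plakin PPL was 0.49 higher in NLS-actin than in parental cells (adjusted p = 0.549, limma).

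Among 17 measured regulators of epithelial junction genes, 0 passed an adjusted p under 0.05 in limma in any comparison. An unadjusted p under 0.05 was found for 2, 2 and 1 in NLS-actin against parental, WT-actin against parental and NLS-actin against WT-actin cells. The shares of all genes were 6.44%, 6.69% and 9.47%. TWIST2, a repressor of epithelial genes, had signals of 109, 101 and 111 in parental, 37.9, 37.9 and 49.3 in WT-actin and 143, 109 and 108 in NLS-actin cells. It was lowest in WT-actin cells, and NLS-actin exceeded WT-actin cells by 1.53 (adjusted p = 0.0548, limma). TWIST1, its relative, was 0.95 higher in WT-actin than in parental cells (adjusted p = 0.392, limma) and 0.71 higher in NLS-actin than in parental cells (adjusted p = 0.659, limma). KLF5, an activator in basal keratinocytes, was 0.41 higher in NLS-actin than in parental cells (adjusted p = 0.719, limma).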

How the data were processed

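Affymetrix U133 Plus 2.0 arrays measured RNA of parental HaCaT, WT-actin and NLS-actin cells, each on 3 arrays. The authors deposited MAS5 signals, linear intensities scaled to a shared trimmed mean per array (500.04 to 500.06 after trimming 2% at each end). The MAS5 version and detection calls are not given in the sources used here. The number of arrays limits the precision, and an exact permutation test of 3 against 3 arrays cannot give a p below 0.1.

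Signals were converted to log2 without offset or filter. Of 54613 probe sets that were not controls, 41091 carried 1 gene symbol, 1801 several and 11721 none, and only the first were used for genes. Symbols came from the platform annotation and 41037 were updated by gene identifier. Each gene was represented by the probe set with the highest mean log2 signal. The comparisons used R 4.3.3 with limma 3.58.1 (1 mean per line, all 9 arrays, intensity trend), with Benjamini-Hochberg adjustment over 19775 genes at 0.05. The fit was tested on simulated data. Python 3.11.15 with matplotlib 3.10.9 and pandas 2.3.3 produced the tables and plots. Promoters were taken from RefSeq (GRCh38.p14).

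The members and gene lists were chosen with earlier results of these data known. Values on every array are given for members past an adjusted or unadjusted p of 0.05 or past the thresholds of the study, and for the member of each structure with the highest mean signal. From other lists up to 4 genes with the smallest p are named. Values of KRT1, EPCAM, GJB2 and the second probe sets were added after they were seen. Over 9887 genes, deviations of parental and NLS-actin arrays of the same number correlated at 0.23, 0.79 and 0.42, and these numbers were taken as pairs. NLS-actin replicate 1 correlated at 0.53 with parental replicate 3, and NLS-actin replicate 3 at 0.34 with parental replicate 1. The remaining correlations between arrays of different numbers were -0.66 to -0.35. These values set apart only replicate 2, the deviating array of both lines, and do not establish replicates 1 and 3 as pairs. WT-actin arrays correlated at -0.08, -0.35 and 0.51 with parental arrays of their number and were not paired.

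Alternatives were quantile normalization, an offset of 8.08, a filter on dim probe sets, no intensity trend, the replicate block and a fit of 2 lines. Others were the mean of all probe sets, leaving out cross-hybridizing probe sets, Tukey's test and omission of each array or of the 3 deviating arrays. A further one took the 3′ to 5′ ratio of the GAPDH control probe sets as a covariate. The block in a fit of 6 arrays was added after the data were seen.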

Additional observations from a re-analysis of the deposited data

Results flagged for a closer look

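For 2 junction genes the difference from parental cells was unlike in the NLS-actin and WT-actin lines. For DSG4 the NLS-actin difference from parental cells minus that of WT-actin cells was 4.62 on the log2 scale (adjusted p = 0.0121, limma). All 3 NLS-actin arrays were above and all 3 WT-actin arrays below the parental arrays. For GJA1 the same difference was 1.10 (adjusted p = 0.0162, limma), and its arrays lay on opposite sides of the parental arrays in the same way. Both lines are set against the same parental arrays, so each value equals the difference between NLS-actin and WT-actin cells. With 1 stable line per construct, these are differences between lines.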

How the results depend on the processing

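Between NLS-actin and WT-actin cells, 2 members were called, and 14 of 20 alternatives gave a count within 1.5 times of that. The count was 0 without the intensity trend, 1 (GJA1) when only these lines were fitted, 0 by Tukey's test and 1 to 3 when 1 array was left out. For NLS-actin against parental cells the count of 0 became 4 with a replicate block in a fit of 6 arrays, and for WT-actin against parental cells it became 1 (DSG4, adjusted p = 0.0456, limma) with a replicate block over all 9 arrays, a pairing that the WT-actin arrays did not bear out. At an adjusted p under 0.05 the block changed no other call of a member. At an unadjusted p under 0.05 it added DSG3 in the fit of 9 arrays with parental and NLS-actin pairs, to 9 members (26.5%) against 7.73% of all genes. In the fit of 6 arrays it added DSG3, DSP, JUP, LSR and TJP3, to 13 members (38.2%) against 13.4% of all genes. There TJP3 made 3 members at the thresholds of the study. With the block over all 9 arrays PERP was no longer under an unadjusted p of 0.05 for NLS-actin against parental cells. The median of the members for NLS-actin against parental cells was 0.0215 after quantile normalization and -0.00988 over the mean of all probe sets. For WT-actin against parental cells it was -0.0425, -0.0978 and, with 1 array left out, 0.0551 to 0.114. Between the actin lines it was 0.0413 after quantile normalization, 0.0458 without the 3 deviating arrays and -0.0942 to 0.0254 with 1 array left out. At the thresholds of the study, the count for NLS-actin against parental cells was 1 (GJB6) without the intensity trend, without the 3 deviating arrays and by Tukey's test, and 1 to 2 with 1 array left out, being 1 without parental replicate 3 or NLS-actin replicate 2. For WT-actin against parental cells it was 1 by Tukey's test, and between the actin lines 1 to 3 with 1 array left out. The direction turned for CLDN4 (0.43, NLS-actin against parental, mean of probe sets) and PERP (-0.28, mean of probe sets, and -0.19, without cross-hybridizing probe sets, WT-actin against parental). By Tukey's test the adjusted p between NLS-actin and WT-actin cells was 0.454 for DSG4 and 0.325 for GJA1, and without the intensity trend that of GJA1 was 0.14. In all alternatives 17, 15 and 18 of the 34 members kept 1 sign in the comparisons of NLS-actin with parental, WT-actin with parental and NLS-actin with WT-actin cells. The cause of these shifts was not tested. Without detection calls, signals near the floor could not be separated from absent transcripts, which limits DSG4 and GJB6.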
